A study of Mus musculus with 5 samples.

Results

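DNA replication and nucleotide synthesis genes were followed through lung natural helper cells, innate lymphocytes also called group 2 innate lymphoid cells. The 60 genes were listed by their role in these pathways, with earlier results of these data known, and 59 of them were measured by a probe set annotated to a single gene, among 19938 genes on the array. Impdh2, which codes for an enzyme of guanine nucleotide synthesis, was not analysed here. Where a gene had more than 1 such probe set, the brightest on average across all 5 arrays stands for it.

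The tested samples were 2 samples of natural helper cells cultured for 3 days with 60 ng/ml PMA, which switches on protein kinase C, and 500 ng/ml ionomycin, which lets calcium into the cell (stimulated arrays 1 and 2). They were set against 3 samples of the same sorted population lysed straight after sorting, with no culture and no activator (unstimulated arrays 1 to 3). The mice were naive C57Bl/6 animals, 6 to 8 weeks old, and lung cells had been sorted as lineage-negative cells carrying Sca-1, CD127 and CD25 with little or no c-Kit. No unstimulated culture was among the samples analysed here, so 3 days of culture and the activators cannot be told apart. The labels do not state whether each sample had its own mice or culture, so the p-values cover the spread among these 5 arrays alone, and that spread may be technical.

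A cell copies its DNA from origins that are licensed in G1 phase, when the origin recognition complex, CDC6 and CDT1 load the MCM2 to MCM7 helicase onto DNA. At the start of S phase, CDC45 and the GINS complex join the helicase, and polymerases, a sliding clamp and its loader build the fork. The building blocks come from purine and pyrimidine synthesis, ribonucleotide reductase and thymidylate synthase. Resting lymphocytes are known to hold these genes low and to raise them on entry into the cell cycle, many of them through E2F transcription factors, while nucleotide synthesis genes are also known targets of MYC.

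Levels are given on the log2 scale as RMA (robust multi-array average) returns them, so a difference of 1 is a 2-fold change. Differences are stimulated minus unstimulated, with the standard error (SE) of a limma fit over all genes. A gene was called where its Benjamini-Hochberg adjusted p over all 19938 genes was under 0.05.

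Most of the genes read higher after PMA and ionomycin, but none was called. Of the 59, 54 had a higher stimulated than unstimulated mean and 5 a lower one, and the median difference was 0.48 against 0.00 over all genes. With limma, 0 were called higher and 0 lower, where 0.737% and 0.963% of all genes were. At an unadjusted p under 0.05, 18 were higher (30.5%, against 11.3% of all genes) and 1 was lower, where 8.58% of all genes were lower. Tyms, which codes for thymidylate synthase, came nearest to the threshold with a difference of 1.06 ± 0.11 SE (adjusted p = 0.0510 with limma). The median difference was 0.25 without stimulated array 1 and 0.69 without stimulated array 2. In a fit chosen after seeing the data, which left out all genes with the same value on 2 or more arrays, limma called 18 of the 40 remaining genes higher and 1 lower, against 20.4% and 15.3% of the 7579 genes in that fit.

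The stimulated arrays differed from each other. On stimulated array 1, 54 of the 59 genes lay above every unstimulated array, where 28.2% of all genes did. Stimulated array 2 placed 32 above every unstimulated array, where 29.6% of all genes were above. The same 32 were above on both arrays (18.6% of all genes were), and 22 were above on array 1 alone, against 9.68% of all genes. The number above on array 1 alone was lower under some settings and changed less under others. Without unstimulated array 3, 55 genes were above on array 1 and 45 on array 2, which left 10 on array 1 alone (9.1% of all genes). With each array centred on its median, 56 were above on array 1 and 44 on array 2, against 51.5% and 51.1% of all genes, which left 12 on array 1 alone (6.66% of all genes). Among the 40 genes without repeated values, 31 were above on both arrays and 7 on array 1 alone. Of all genes without repeated values, 41.2% and 5.19% were. With quantile normalization, 20 were above on array 1 alone (33.9%, against 11.4% of all genes). Among the 52 genes with a mean over the median of all probe sets, 18 were (34.6%, against 8.57% of such genes). Leaving out unstimulated array 1 or 2 gave 22 or 20, against 9.88% or 9.31% of all genes. In the values as deposited, the 5 genes above on neither array were Cdt1, Mcm10, Rfc4, Lig1 and Tk1. Only 1 gene, Tk1, lay below every unstimulated array on both stimulated arrays, as 14.0% of all genes did.

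**Figure D1:**
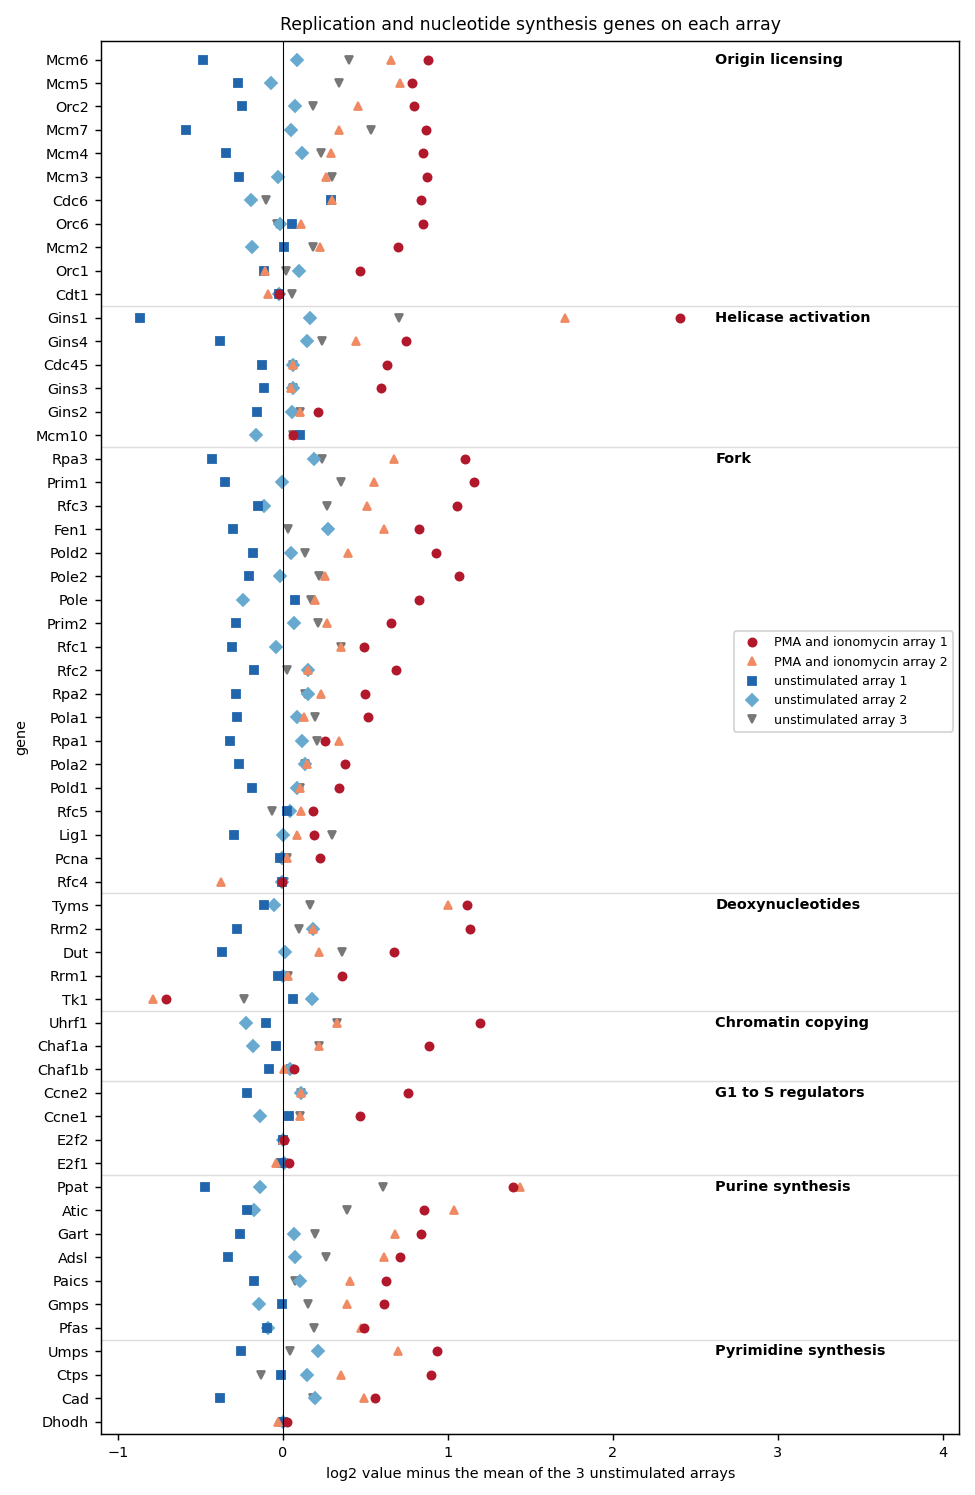
Each row is a gene, grouped by role, and the horizontal axis is its log2 value minus the mean of its 3 unstimulated values. Red circles (stimulated array 1) lie to the right of all unstimulated points for 54 of 59 genes and orange triangles (stimulated array 2) for 32, while the blue and grey points of the 3 unstimulated arrays are spread around 0.

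Beside these values, markers of other lung cells differed between the arrays. The mean level of 5 endothelial genes was 5.56 and 5.91 on the stimulated arrays, against 8.01, 7.68 and 6.35 on the unstimulated arrays. The 6 epithelial genes averaged 6.02 and 6.08 on the stimulated arrays, against 7.37, 6.81 and 6.40 on the unstimulated arrays. Cdh5, which codes for an endothelial cadherin, read 5.59 and 6.19 on the stimulated arrays, against 9.71, 9.06 and 7.12 on the unstimulated arrays. Scgb1a1, a club cell secretory protein gene, read 6.95 and 7.97 on the stimulated arrays, against 11.17, 10.58 and 8.67 on the unstimulated arrays. Unstimulated arrays 1 and 2 thus read highest for the means of both lists, and array 3 lay nearer to the stimulated arrays. Not every list had this order. In fibroblast genes the unstimulated means were 6.17, 5.67 and 5.69. The mast cell and basophil list had its highest mean on unstimulated array 3. The epithelial genes were not all alike. Of the 6, 4 were below the unstimulated range on both stimulated arrays (14.0% of all genes were). Epcam was highest on unstimulated array 3, at 5.99, and Sftpb ran from 5.67 to 5.75 over the 5 arrays. Krt8 read 7.17 and 7.22 on the stimulated arrays, against 7.42, 7.19 and 6.85 on the unstimulated arrays. Of the 6 neutrophil genes, S100a9 read 4.97 and 5.09 on the stimulated arrays, against 9.49, 8.15 and 6.91 on the unstimulated arrays, and S100a8 had the same order of arrays. None of the other 4 was below the unstimulated range on both stimulated arrays, Ly6g was above it on both, and the list's median difference was -0.14. T cell genes averaged 7.19 and 7.01 on the stimulated arrays, against 7.56, 7.88 and 6.79 on the unstimulated arrays. Among them Cd28 lay above the unstimulated range on both, at 9.19 and 9.22 against 8.14, 8.11 and 7.08. Of the 7 T cell genes, 2 were below that range on both stimulated arrays (14.0% of all genes were), and the list's median difference was -0.57. The 10 natural helper cell genes averaged 9.64 and 9.55 on the stimulated arrays, against 10.6, 10.6 and 10.5 on the unstimulated arrays. Limma called 5 of them lower (Rora, Il7r, Id2, Il17rb and Kit), as it did 0.963% of all genes. Of the 10, 7 were below the unstimulated range on both stimulated arrays, and 1, Il2ra, was above it on both. Of all genes, 14.0% and 18.6% were. No gene of the lists for other cell types was called. Gata3, the transcription factor gene that marks the lineage, read 10.18 and 10.22 on the stimulated arrays, against 10.76, 10.82 and 10.55 on the unstimulated arrays. There were no detection calls, so no marker can be called absent. The part of these other cells in the results was not tested. In RNA from a whole sample, more cells of a kind cannot be told apart from more RNA per cell.

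**Figure D2:**
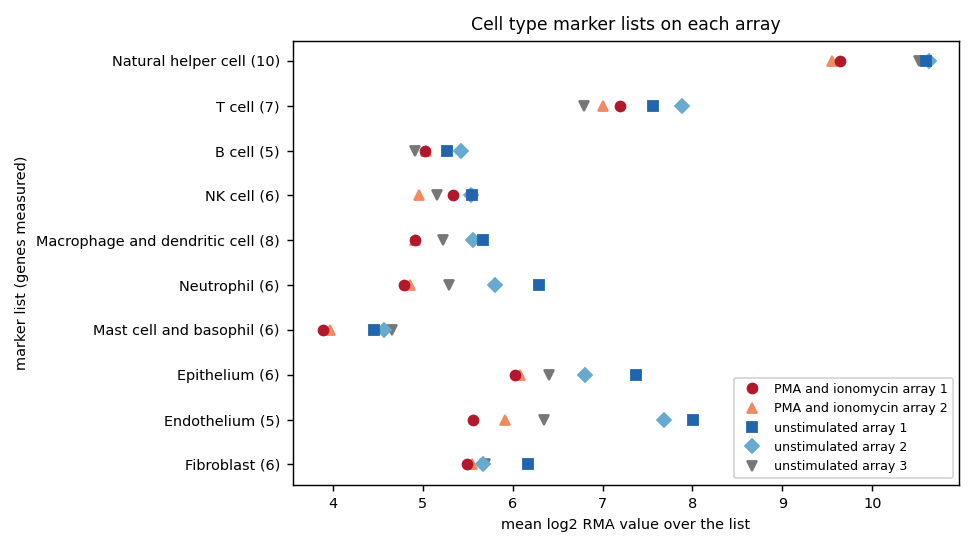
Mean log2 value of each marker list (vertical axis, number of genes measured in brackets) on each of the 5 arrays. Endothelium runs from 5.56 on stimulated array 1 to 8.01 on unstimulated array 1, and unstimulated array 3 (6.35) is the lowest of the 3 unstimulated arrays.

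Against unstimulated array 3 alone, the median over the 59 genes was 0.47 on stimulated array 1 and 0.05 on stimulated array 2. Against the mean of unstimulated arrays 1 and 2 it was 0.79 and 0.33. The 3 unstimulated arrays were not alike for these genes either. Among the 50 genes with 3 distinct unstimulated values, array 1 was the lowest for 38 and array 3 the highest for 35. The median of unstimulated array 3 minus unstimulated array 1 was 0.31, the same as the median of 0.31 between stimulated arrays 1 and 2.

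Promoter sequence was looked up for the genes in a RefSeq table (build GRCm38.p6) that holds 250 bases before and 50 after each gene's start, since E2F factors and MYC are known to bind upstream of many of them. It held 49 of the 59, all but Mcm4, Gins1, Gins2, Gins4, Rfc2, Prim2, Pole, Ccne2, Pfas and Dhodh. The E2F motif was searched as TTTCCCGC, TTTCGCGC, TTTGCCGC or TTTGGCGC, and the E-box that MYC can bind as CACGTG, both on either strand. An E2F match was present for 16 of the 49 genes (32.7%), against 2.6% of 27025 genes in the table. The E-box was present for 9 (18.4%), against 8.09% of the table. Origin licensing genes held E2F matches most often, with 7 of 10. A match to these letters is a description and no evidence of binding.

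Shown are the 160 bases just before the start of 4 genes, as examples of a licensing gene pair with E2F letters and of purine synthesis genes with either motif. Capitals mark the motif letters, and overlapping matches run together. Mcm6 lies at chr1:128359706-128359865 on the minus strand and Mcm5 at chr8:75109349-75109508 on the plus strand. Ppat lies at chr5:76951579-76951738 on the minus strand and Atic at chr1:71556996-71557155 on the plus strand.
Mcm6: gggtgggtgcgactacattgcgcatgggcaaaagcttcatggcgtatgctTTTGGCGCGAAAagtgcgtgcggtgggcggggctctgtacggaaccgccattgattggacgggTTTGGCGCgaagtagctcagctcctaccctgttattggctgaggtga
Mcm5: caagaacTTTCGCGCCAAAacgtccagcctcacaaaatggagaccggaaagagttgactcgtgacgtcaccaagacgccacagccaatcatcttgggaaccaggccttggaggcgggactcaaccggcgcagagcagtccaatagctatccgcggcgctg
Ppat: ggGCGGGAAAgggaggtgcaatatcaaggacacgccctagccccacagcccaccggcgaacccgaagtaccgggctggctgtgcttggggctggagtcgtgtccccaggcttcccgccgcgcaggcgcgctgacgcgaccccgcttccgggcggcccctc
Atic: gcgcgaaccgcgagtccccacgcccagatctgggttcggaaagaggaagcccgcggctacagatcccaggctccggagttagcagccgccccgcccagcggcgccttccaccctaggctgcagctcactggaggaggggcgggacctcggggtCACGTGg
The Mcm6 stretch held 3 E2F matches, of which 2 overlap, and the Mcm5 stretch held an overlapping pair. Ppat held 1 E2F match, and Atic 1 E-box 7 bases before its start. Of the genes above every unstimulated array on both stimulated arrays, 6 of 26 with a promoter held an E2F match and 6 an E-box. Of those above on stimulated array 1 alone, 8 of 18 held an E2F match and 2 an E-box. No test was made of these counts.

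Origin licensing genes read higher on stimulated array 1 than on array 2, without exception among the 11. Their median difference was 0.57, with 0.84 on stimulated array 1 and 0.29 on array 2 above the unstimulated mean. On array 1, 10 of 11 lay above every unstimulated array, and 7 did on array 2, as did 28.2% and 29.6% of all genes. None was called.
Mcm6, a subunit of the MCM helicase, read 8.64 and 8.42 on the stimulated arrays, against 7.27, 7.85 and 8.16 on the unstimulated arrays. That is a difference of 0.77 ± 0.31 SE (adjusted p = 0.320 with limma), with no overlap between the groups. Mcm5, whose protein sits in the same ring, read 7.18 and 7.11 on the stimulated arrays, against 6.13, 6.33 and 6.74 on the unstimulated arrays (0.75 ± 0.21 SE, adjusted p = 0.186 with limma). In Mcm5 the stimulated arrays lay within 0.07 of each other, the closest pair of the MCM2 to MCM7 genes. Mcm7 read 6.51 and 5.99 on the stimulated arrays, against 5.06, 5.70 and 6.18 on the unstimulated arrays, so that stimulated array 2 lay inside the unstimulated range. Mcm3 did likewise, at 7.43 and 6.82 on the stimulated arrays, against 6.29, 6.53 and 6.85 on the unstimulated arrays. Mcm4 and Mcm2 were above the unstimulated range on both arrays, but on array 2 by 0.06 and 0.05.
The origin recognition genes were uneven. Orc2 read 8.11 and 7.77 on the stimulated arrays, against 7.06, 7.38 and 7.49 on the unstimulated arrays, a difference of 0.62 ± 0.19 SE. Orc6 read 8.32 and 7.59 on the stimulated arrays, against 7.53, 7.46 and 7.44 on the unstimulated arrays, so that array 1 stood far above the other 4 values. Without stimulated array 2, Orc6 was called (0.85, adjusted p = 0.0408 with limma). Orc1 read 6.0 and 5.42 on the stimulated arrays, against 5.42, 5.63 and 5.55 on the unstimulated arrays, and its difference of 0.18 ± 0.21 SE turned to -0.11 without stimulated array 1.
The loading factors parted. Cdc6 read 5.77 and 5.24 on the stimulated arrays, against 5.23, 4.75 and 4.84 on the unstimulated arrays (0.57 ± 0.25 SE). Cdt1, which codes for the other loading factor, read 5.93 and 5.87 on the stimulated arrays, against 5.93, 5.93 and 6.01 on the unstimulated arrays. It was the only licensing gene with a negative difference (-0.06 ± 0.04 SE), and its stimulated array 1 value was also that of unstimulated arrays 1 and 2. Whether the Cdc6 and Cdt1 probe sets lie above background was not determined.

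Of the 6 helicase activation genes, Gins1 had the widest difference of all 59 genes. Gins1, a GINS subunit, read 7.31 and 6.61 on the stimulated arrays, against 4.04, 5.07 and 5.61 on the unstimulated arrays. The groups did not overlap, and the difference was 2.06 ± 0.59 SE, or 4.16-fold, with unstimulated values spread over 1.57 (adjusted p = 0.187 with limma). Gins4 read 8.98 and 8.68 on the stimulated arrays, against 7.85, 8.38 and 8.47 on the unstimulated arrays (0.59 ± 0.25 SE). Gins1 and Gins4 were the only 2 of the 6 above the unstimulated range on both stimulated arrays, as were 18.6% of all genes.
Cdc45, whose protein joins GINS on the helicase, read 6.62 and 6.05 on the stimulated arrays, against 5.86, 6.05 and 6.05 on the unstimulated arrays. Gins3 read 6.96 and 6.42 on the stimulated arrays, against 6.25, 6.43 and 6.43 on the unstimulated arrays. In both, stimulated array 1 alone stood out, and array 2 lay at or just below the value that unstimulated arrays 2 and 3 shared. Gins2 differed by 0.16 ± 0.10 SE and Mcm10, which codes for a factor needed to start the helicase, by 0.06 ± 0.10 SE. Mcm10 had the smallest difference of the 6, at 5.57 and 5.57 on the stimulated arrays, against 5.61, 5.34 and 5.57 on the unstimulated arrays.

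**Figure D3:**
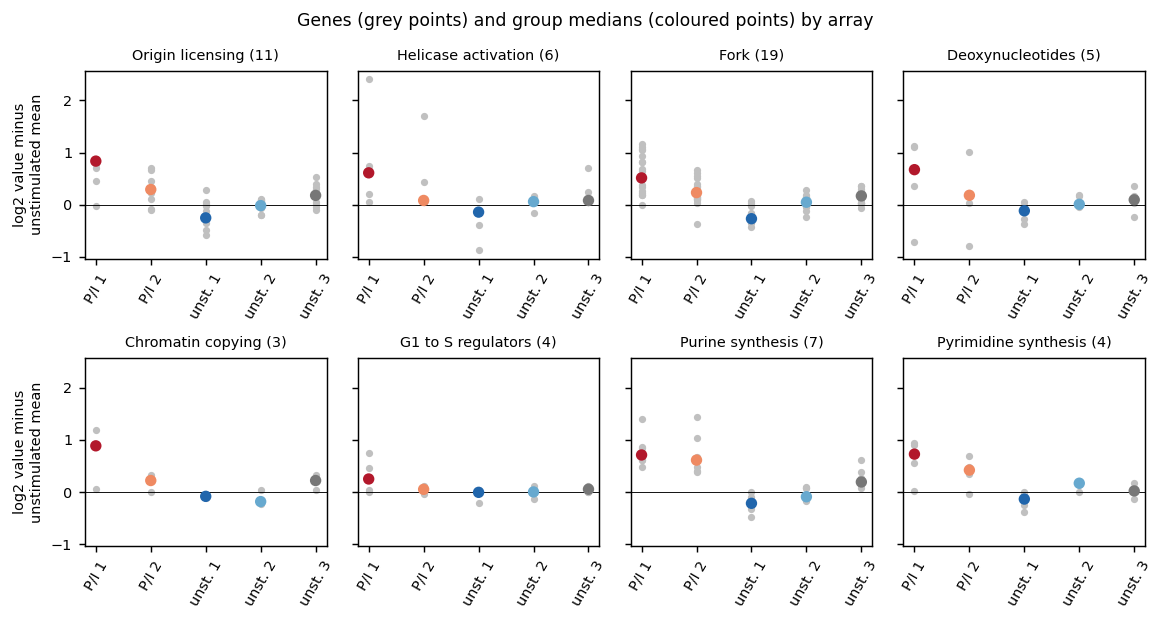
One panel per role, with the number of genes in brackets, and the 5 arrays along the horizontal axis (P/I for PMA and ionomycin, unst. for unstimulated). The vertical axis is the log2 value minus the gene's unstimulated mean, for each gene as small grey points and as the median in colour: purine synthesis stands at 0.71 and 0.61 on the stimulated arrays, while origin licensing stands at 0.84 and 0.29.

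The 19 fork genes had a median difference of 0.42. Of these, 17 were above every unstimulated array on stimulated array 1 and 12 on both, as were 28.2% and 18.6% of all genes. None was called. Rpa3, a subunit of the protein that coats single-stranded DNA, read 9.10 and 8.67 on the stimulated arrays, against 7.57, 8.19 and 8.24 on the unstimulated arrays. Its difference was 0.89 ± 0.29 SE (adjusted p = 0.230 with limma), and its other probe set differed by 0.57. Prim1, the catalytic primase subunit gene, read 8.35 and 7.74 on the stimulated arrays, against 6.84, 7.19 and 7.55 on the unstimulated arrays (0.85 ± 0.31 SE). The primase partner gene Prim2 (0.46 ± 0.22 SE) also lay above the unstimulated range on both stimulated arrays. Of the polymerase alpha genes, Pola1 differed by 0.32 ± 0.21 SE and Pola2 by 0.26 ± 0.17 SE.
The clamp loader genes differed among themselves. Rfc3 read 7.98 and 7.44 on the stimulated arrays, against 6.77, 6.81 and 7.19 on the unstimulated arrays (0.78 ± 0.24 SE). Rfc4 went the other way, at 7.03 and 6.66 on the stimulated arrays, against 7.03, 7.03 and 7.04 on the unstimulated arrays. Stimulated array 2 alone was low in Rfc4, the only fork gene with a negative difference (-0.19 ± 0.13 SE). The Rfc4 value on stimulated array 1 was also that of unstimulated arrays 1 and 2. Without stimulated array 1, its difference was -0.37, which rests on 1 stimulated array. Rfc1 differed by 0.42 ± 0.23 SE, Rfc2 by 0.42 ± 0.21 SE and Rfc5 by 0.15 ± 0.05 SE. The gene of the clamp itself, Pcna, had the smallest difference of the 19, at 10.83 and 10.63 on the stimulated arrays, against 10.59, 10.60 and 10.63 on the unstimulated arrays.
Among the replicative polymerases, Pold2, an accessory subunit gene of polymerase delta, read 7.0 and 6.46 on the stimulated arrays, against 5.89, 6.12 and 6.20 on the unstimulated arrays (0.66 ± 0.21 SE). The catalytic subunit gene Pold1 differed by 0.22 ± 0.14 SE, and its stimulated array 2 value was also that of unstimulated array 3. The polymerase epsilon genes Pole2 (0.66 ± 0.31 SE) and Pole (0.51 ± 0.26 SE) were above the unstimulated range on both arrays, on array 2 by 0.03 and 0.02. For Pole2 the stimulated arrays differed by 0.82, the widest gap of the fork genes.
Okazaki fragment genes parted as well. Fen1, the flap endonuclease gene, read 6.42 and 6.20 on the stimulated arrays, against 5.29, 5.87 and 5.62 on the unstimulated arrays (0.72 ± 0.21 SE). Lig1, the DNA ligase gene, read 7.23 and 7.12 on the stimulated arrays, against 6.74, 7.04 and 7.33 on the unstimulated arrays. The highest of the Lig1 values was thus on unstimulated array 3, and its difference was 0.14 ± 0.20 SE. The single-strand binding genes Rpa2 (0.37 ± 0.19 SE) and Rpa1 (0.30 ± 0.19 SE) were above the unstimulated range on both stimulated arrays, and Rpa1 was the only fork gene higher on array 2 than on array 1.

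The 3 genes that copy chromatin marks and histones behind the fork were above the unstimulated range on stimulated array 1 alone, as were 9.68% of all genes. Uhrf1, whose protein directs maintenance DNA methylation, read 7.45 and 6.59 on the stimulated arrays, against 6.15, 6.03 and 6.59 on the unstimulated arrays. Stimulated array 2 and unstimulated array 3 shared a value in Uhrf1, and the difference was 0.76 ± 0.35 SE. Chaf1a, a subunit of the histone chaperone CAF-1, read 6.82 and 6.15 on the stimulated arrays, against 5.89, 5.75 and 6.15 on the unstimulated arrays (0.55 ± 0.26 SE). Its partner Chaf1b read 5.77 and 5.71 on the stimulated arrays, against 5.62, 5.74 and 5.74 on the unstimulated arrays, a narrow span with a difference of 0.04 ± 0.05 SE.

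The G1 to S regulators had the lowest median difference of the 8 role groups, 0.15. Ccne2, a cyclin E gene, read 6.75 and 6.10 on the stimulated arrays, against 5.77, 6.10 and 6.10 on the unstimulated arrays (0.43 ± 0.25 SE). Ccne1, the other cyclin E gene, read 5.85 and 5.49 on the stimulated arrays, against 5.42, 5.25 and 5.49 on the unstimulated arrays (0.29 ± 0.15 SE). Again stimulated array 1 alone stood above the unstimulated range. The transcription factor genes E2f1 and E2f2 had nearly flat values. E2f1 ran from 5.41 to 5.49 and E2f2 from 5.42 to 5.43 over the 5 arrays. With no detection calls, whether these probe sets lie above background was not determined.

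The 5 deoxynucleotide genes held both the nearest call and the clearest lower reading. Tyms, which makes dTMP from dUMP, read 7.22 and 7.11 on the stimulated arrays, against 5.99, 6.05 and 6.27 on the unstimulated arrays. The gap between the groups was wider than the spread within either, and the group means differed 2.08-fold. Limma's adjusted p for Tyms ran from 0.00377 to 0.194 over the alternatives tried, with the same direction in each.
Tk1, thymidine kinase of the salvage route to the same product, read 7.62 and 7.54 on the stimulated arrays, against 8.39, 8.50 and 8.09 on the unstimulated arrays. Tk1 was lower on both stimulated arrays than on any unstimulated array (-0.75 ± 0.15 SE, adjusted p = 0.109 with limma). Its other probe set had a difference of -0.47 and the same separation. Tyms and Tk1 thus differed in opposite directions.
Rrm2, the small subunit gene of ribonucleotide reductase, read 7.86 and 6.91 on the stimulated arrays, against 6.45, 6.91 and 6.82 on the unstimulated arrays. Its 2 stimulated values differed by 0.95, the widest such gap among the 59 genes, and array 2 shared its value with unstimulated array 2. The large subunit gene Rrm1 read 8.32 and 8.0 on the stimulated arrays, against 7.94, 7.97 and 8.0 on the unstimulated arrays, and its difference of 0.19 ± 0.11 SE was the smallest of the group. Dut, which clears dUTP, differed by 0.45 ± 0.29 SE and was above the unstimulated range on array 1 alone.

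Purine synthesis genes stood above the unstimulated range on both stimulated arrays in 7 of 7 cases, where 18.6% of all genes did. None of the 7 had a repeated value, and of all genes without repeated values 41.2% stood above on both. Their median difference was 0.66, with 0.71 on stimulated array 1 and 0.61 on array 2 above the unstimulated mean, and the median gap between the stimulated arrays was 0.10. All 7 had an unadjusted p under 0.05, and none was called over all genes. In the fit without genes holding repeated values, 7 of 7 were called higher, as were 20.4% of all genes in that fit.
Ppat, the gene of the enzyme that commits a cell to purine synthesis, read 9.30 and 9.34 on the stimulated arrays, against 7.43, 7.76 and 8.51 on the unstimulated arrays. The difference was 1.42 ± 0.37 SE, or 2.67-fold (adjusted p = 0.167 with limma). Paics, which codes for a later enzyme of the route and starts 276 bases from Ppat on the opposite strand in GRCm38.p6, read 10.03 and 9.81 on the stimulated arrays, against 9.23, 9.51 and 9.48 on the unstimulated arrays (0.51 ± 0.13 SE). Atic, the gene of the enzyme that finishes IMP, read 9.38 and 9.57 on the stimulated arrays, against 8.31, 8.35 and 8.92 on the unstimulated arrays (0.95 ± 0.24 SE). Ppat and Atic were the purine genes that read higher on stimulated array 2 than on array 1. Gart, which codes for an enzyme with several steps of the route, read 7.76 and 7.61 on the stimulated arrays, against 6.67, 7.0 and 7.12 on the unstimulated arrays (0.76 ± 0.17 SE). Pfas had the smallest difference of the 7, at 6.36 and 6.34 on the stimulated arrays, against 5.77, 5.78 and 6.05 on the unstimulated arrays (0.48 ± 0.11 SE). Without unstimulated array 3, Pfas was called (0.58, adjusted p = 0.0360 with limma). Adsl (0.66 ± 0.21 SE), which acts at more than 1 step on the way to AMP, and Gmps (0.50 ± 0.13 SE), which makes GMP, also had groups that did not overlap.

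Pyrimidine synthesis genes followed except for Dhodh. Umps, whose enzyme makes UMP, read 8.11 and 7.87 on the stimulated arrays, against 6.92, 7.39 and 7.22 on the unstimulated arrays (0.82 ± 0.18 SE, adjusted p = 0.126 with limma). Ctps, which makes CTP, read 7.69 and 7.15 on the stimulated arrays, against 6.78, 6.94 and 6.66 on the unstimulated arrays (0.63 ± 0.21 SE), with array 1 well above array 2. Ctps2, the gene of another CTP synthase on the list of other pathway genes, lay below the unstimulated range, at 7.76 and 7.72 on the stimulated arrays, against 8.19, 8.57 and 8.37 on the unstimulated arrays (-0.63 ± 0.13 SE, adjusted p = 0.112 with limma). Cad, the gene of the enzyme that opens the route, read 6.73 and 6.67 on the stimulated arrays, against 5.80, 6.37 and 6.36 on the unstimulated arrays (0.52 ± 0.22 SE). The stimulated arrays were above the unstimulated arrays for Umps, Ctps and Cad, as they were for 18.6% of all genes. Dhodh, the mitochondrial enzyme gene of the route, ran from 5.85 to 5.90 over the 5 arrays, with a difference of -0.0012 ± 0.020 SE. Its unstimulated values were identical, and whether its probe set lies above background was not determined.

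**Figure D4:**
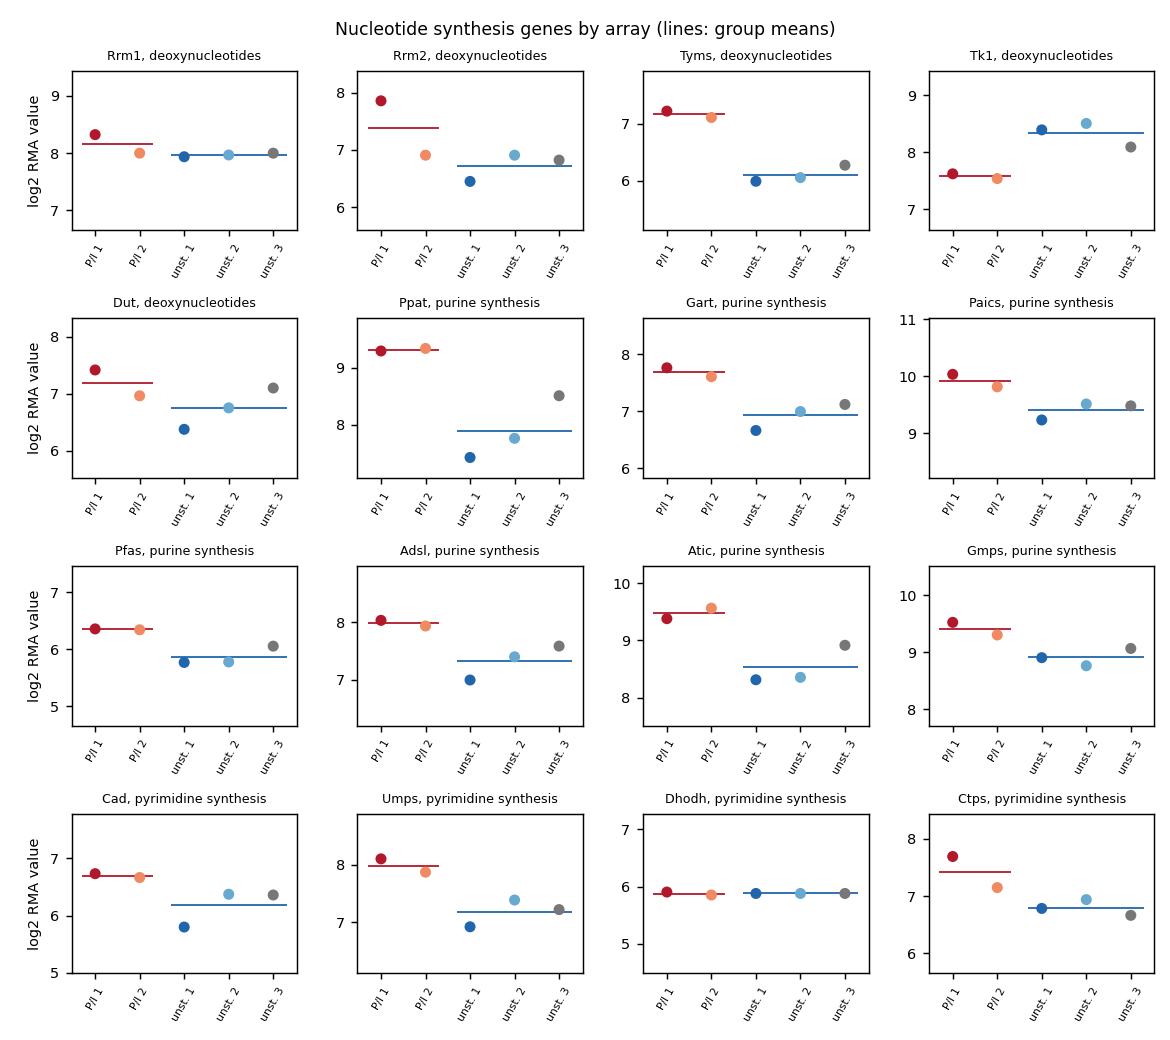
Log2 RMA values of the 16 measured nucleotide synthesis genes on each array, with horizontal lines at the group means and the same height of axis in every panel. The stimulated points lie above the unstimulated points in both arrays for all 7 purine genes, for Umps, Ctps, Cad and Tyms, and below them for Tk1.

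Set side by side, the role groups differed in how far the stimulated arrays lay apart. The median of stimulated array 1 minus stimulated array 2 was 0.53 for origin licensing, 0.43 for helicase activation, 0.37 for fork genes, 0.66 for chromatin copying, 0.22 for G1 to S regulators and 0.32 for deoxynucleotides. It was 0.10 for purine and 0.15 for pyrimidine synthesis, and 0.00 over all genes. Stimulated array 1 read higher than array 2 for 55 of the 59 genes (93.2%), as it did for 37.8% of all genes. For 20 of the 43 replication and S phase genes (46.5%) the gap between the stimulated arrays was wider than the range of the 3 unstimulated arrays, against 2 of the 11 purine and pyrimidine genes and 29.2% of all genes. There were 13 genes in which stimulated array 2 had a value identical to 5 decimals with an unstimulated array, and 3 in which stimulated array 1 did. These are 22.0% and 5.08% of the 59, against 37.2% and 35.2% of all genes. Repeated values were seen in 19 of the 59 genes (32.2%), against 62.0% of all genes. Whether the role groups differ in this was not tested, since each stimulated array is a single sample. Against unstimulated array 3 alone, the median on stimulated array 2 was 0.35 for purine and pyrimidine genes and 0.01 for the replication and S phase genes, and on stimulated array 1 it was 0.47 and 0.48.

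**Figure D5:**
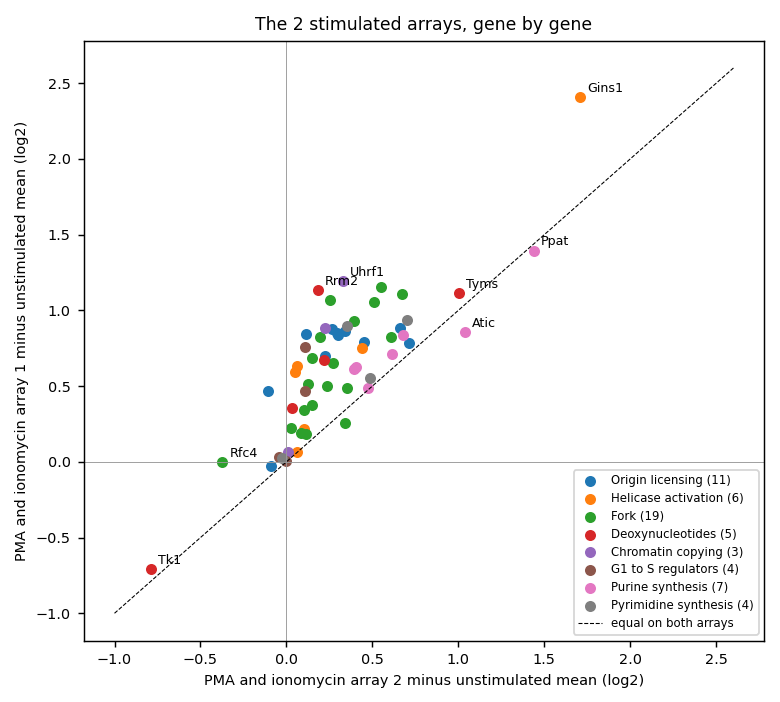
Each point is a gene, with its stimulated array 2 value on the horizontal axis and its stimulated array 1 value on the vertical axis, both as log2 minus the unstimulated mean. Most replication genes lie above the dashed line of equal values, with Uhrf1 at 0.33 and 1.19 and Rrm2 at 0.18 and 1.13, while Ppat (1.44 and 1.39), Atic (1.04 and 0.86) and Tyms (1.0 and 1.11) lie near it.

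Other genes of the same pathways were read from a list of 67, of which 64 were measured. Pole3, a small subunit gene of polymerase epsilon, was called higher, and no other was called in either direction. Of all genes, 0.737% were called higher and 0.963% lower. It read 8.16 and 8.18 on the stimulated arrays, against 7.49, 7.49 and 7.56 on the unstimulated arrays, a rise of 0.66 ± 0.03 SE (adjusted p = 0.0229 with limma). Leaving out stimulated array 1 gave an adjusted p of 0.0502, and leaving out unstimulated array 1 or 2 gave 0.0786 or 0.102. It ran from 0.00848 to 0.167 over the alternatives, the highest being with the replicate number as a block. The list's median difference was 0.34, 34 of 64 were above the unstimulated range on both stimulated arrays (18.6% of all genes were), and 20 had an unadjusted p under 0.05 in the higher direction (31.2%, against 11.3% of all genes). The stimulated mean was lower for 10 of the 64. Of these, 4 were below the unstimulated range on both stimulated arrays, as were 14.0% of all genes.
Among the genes with the widest differences were 3 that supply one-carbon units to purines and dTMP. Shmt2, the mitochondrial serine hydroxymethyltransferase gene, read 8.30 and 8.32 on the stimulated arrays, against 6.41, 7.04 and 7.21 on the unstimulated arrays (1.43 ± 0.29 SE, adjusted p = 0.111 with limma). Mthfd2, the next mitochondrial enzyme gene, read 8.87 and 8.58 on the stimulated arrays, against 7.28, 7.86 and 6.80 on the unstimulated arrays (1.41 ± 0.37 SE). Their cytosolic relative Mthfd1 differed by 1.01 ± 0.25 SE, and Shmt1, the cytosolic counterpart of Shmt2, by 0.34 ± 0.07 SE, near the list's median. Dctd, which codes for dCMP deaminase and feeds dUMP to TYMS, read 7.31 and 6.86 on the stimulated arrays, against 5.66, 5.63 and 5.87 on the unstimulated arrays (1.37 ± 0.18 SE, adjusted p = 0.0661 with limma). In these genes the groups did not overlap.
Rb1, whose protein restrains E2F factors, was the widest in the lower direction. It read 9.06 and 8.83 on the stimulated arrays, against 9.89, 10.11 and 10.08 on the unstimulated arrays (-1.08 ± 0.11 SE, adjusted p = 0.0520 with limma). Tipin, a fork protection gene, differed by 1.18 ± 0.52 SE and the nucleoside diphosphate kinase gene Nme1 by 0.94 ± 0.31 SE. Rnaseh2b, a subunit gene of the enzyme that removes ribonucleotides from DNA, read 7.89 and 7.0 on the stimulated arrays, against 6.20, 6.44 and 7.0 on the unstimulated arrays. In Rnaseh2b, as in Uhrf1, stimulated array 2 and unstimulated array 3 shared a value and array 1 alone was above the range.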

How the data were processed

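The deposited values are log2 expression values that the authors made with RMA, per the submitters' processing notes, and the set of arrays normalized together is not given in the sources used here. Total RNA had been labelled as biotinylated cRNA for a 1-colour Affymetrix array, per the labels' protocols. Samples were grouped by their titles. Probe sets were named through the platform's annotation, and genes with several symbols on a probe set were left out.

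R 4.3.3 and limma 3.58.1 (functions lmFit, then eBayes) gave the differences over 19938 genes, with no filter on dim probe sets, and the fit was tested on simulated data. The variance prior carried 0.649 degrees of freedom and the residuals 3. An exact permutation test over the 10 ways to split 5 arrays cannot go below p = 0.1 and was not used. Counts of genes above every unstimulated array use the values as deposited. The number of arrays limits the precision, and there are no detection calls. Promoter motifs were searched in Python 3.11.15, and figures were drawn with matplotlib 3.10.9.

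The genes, the role groups, the list of other pathway genes and the marker lists were chosen with earlier results of these data known. Genes given with all their values are, in each role group, the 3 with the largest difference in size and the 1 with the smallest, called genes, and up to 8 of the other pathway genes. Further genes given in full (Mcm7, Mcm3, Orc6, Orc1, Cdc6, Gins3, Rfc4, Pold2, Fen1, Lig1, Paics, Ctps2 and Gata3) were chosen after their values were seen. So were the marker genes Krt8 and Cd28. Alternatives tried were other variance priors, array weights, a filter on dim genes, the mean of a gene's probe sets, 2 normalizations, other thresholds, leaving out each array, and a block for the replicate number. Deviations of same-numbered arrays from their group means correlated at -0.14 and -0.06. The deviations of 2 stimulated arrays are mirror images, so these correlations cannot show whether the numbers pair samples. The main fit took the arrays as unpaired.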

Additional observations from a re-analysis of the deposited data

How the results depend on the processing

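The count of genes called higher, 0 of 59, was 1 with an intensity trend, with array weights, with a filter on dim genes (mean over the all-probe-set median), with median centring and at an adjusted p under 0.1, and 2 with quantile normalization. The count called lower, 0, was 1 with the filter on dim genes and with quantile normalization. Without genes holding repeated values, a setting chosen after seeing the data, 18 were called higher and 1 lower, and the prior degrees of freedom were 3.51. Leaving out each array in turn gave 0 to 1 called higher, 0 to 1 called lower and a median difference of 0.25 to 0.69. With the replicate number as a block the median difference was 0.57 and no gene of any kind was called. Over all genes, 147 were called higher and 192 lower, against 45 and 66 with robust eBayes, 824 and 716 with the filter, 597 and 542 with median centring, 674 and 761 with quantile normalization, and 0 to 361 and 0 to 413 when each array was left out. E2f1 turned to 0.017 with median centring and 0.018 with quantile normalization, and Dhodh to 0.020 and 0.011. Against unstimulated array 3 alone, also chosen after seeing the data, Lig1 turned to -0.16 and Chaf1b to -0.0038. When each array was left out, Orc1 ran from -0.11 to 0.47, E2f1 from -0.043 to 0.034, Dhodh from -0.027 to 0.025, Lig1 from -0.010 to 0.29, Chaf1b from -0.0038 to 0.065 and Mcm10 from -0.020 to 0.11. The cause of these changes was not tested.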
